A study of Mus musculus with 1 sample.

Results

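Clu, Anxa1, Anxa3 and Il33 are 4 genes whose products are associated with a fetal-like, regenerative state of gut epithelium, and they were followed here across the single cells of mouse gastric organoids. The 4 rows were found by name among the 32285 genes of the count matrix, by a rule that holds no measured value. Organoids are epithelial cultures grown from stem cells in a gel. The library is labelled wild type for genotype and none for treatment, and it was the one library analysed, so no result below has a replicate. Cultures were taken 7 days after seeding and broken into single cells with 0.05% trypsin-EDTA for 30 min at 37 °C. Neither the strain nor the age and number of mice behind the culture is given in the sources used here, and such a culture lacks the stroma and immune cells of a stomach.

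When gut epithelium is injured, surviving cells can lose adult stem cell features for a time and take up a programme seen in fetal epithelium, which is linked to the transcriptional coactivator YAP. Clu encodes clusterin, a secreted chaperone that marks the damage-induced revival stem cells of the mouse intestine. Anxa1 and Anxa3 encode annexins, proteins that bind membrane phospholipids in the presence of calcium, and secreted annexin A1 acts on formyl peptide receptors in the resolution of inflammation. Il33 encodes an alarmin of the interleukin-1 family, a cytokine held in the nucleus and released on damage, which is read by the receptor chain encoded by Il1rl1.

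All 4 genes are protein-coding in the GENCODE M21 annotation of GRCm38. Clu (ENSMUSG00000022037) lies on chromosome 14 from 65968483 to 65981547, on the plus strand, and its longest models have 9 exons. Anxa1 (ENSMUSG00000024659) lies on chromosome 19 from 20373428 to 20390944, on the minus strand, with up to 14 exons. Anxa3 (ENSMUSG00000029484) lies on chromosome 5 from 96793339 to 96845966, on the plus strand, with up to 13 exons. Il33 (ENSMUSG00000024810) lies on chromosome 19 from 29925114 to 29960718, on the plus strand, with up to 8 exons. The counts sum over whole genes and resolve neither exons nor start sites. Anxa1 overlaps the lincRNA gene 1500015L24Rik on the other strand, which held 28 UMIs in all barcodes, and Anxa3 contains a short annotated locus on its own strand (Gm42603). The longest run of bases that transcripts of Anxa1 and Anxa3 share with each other was 13, and with any other annexin at most 16 for Anxa1 and 18 for Anxa3.

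Start regions from RefSeq (GRCm38.p6) were at hand for 2 of the 4 genes, Anxa1 and Il33, and they are shown because both genes lie on chromosome 19 and hold a DNA motif of the YAP pathway. Each stretch runs 5′ to 3′ from 250 bases before to 50 bases after a start site, and Il33 has 2 start sites. Capitals mark matches to CATTCC or its reverse complement GGAATG, the core motif of the TEAD factors that YAP works with.

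Anxa1, chr19:20390622-20390921, minus strand: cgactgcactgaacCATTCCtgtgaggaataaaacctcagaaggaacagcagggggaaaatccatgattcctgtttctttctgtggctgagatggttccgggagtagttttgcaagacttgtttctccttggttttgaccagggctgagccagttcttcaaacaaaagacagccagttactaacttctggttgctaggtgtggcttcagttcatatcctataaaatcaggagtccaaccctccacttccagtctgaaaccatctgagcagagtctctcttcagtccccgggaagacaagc

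Il33, upstream start, chr19:29924863-29925162, plus strand: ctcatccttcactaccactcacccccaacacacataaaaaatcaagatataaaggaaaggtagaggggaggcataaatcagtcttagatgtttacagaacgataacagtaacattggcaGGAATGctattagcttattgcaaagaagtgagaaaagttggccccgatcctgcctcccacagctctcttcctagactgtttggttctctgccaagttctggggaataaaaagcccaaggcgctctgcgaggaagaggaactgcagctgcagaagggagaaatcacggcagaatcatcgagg

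Il33, downstream start, chr19:29945540-29945839, plus strand: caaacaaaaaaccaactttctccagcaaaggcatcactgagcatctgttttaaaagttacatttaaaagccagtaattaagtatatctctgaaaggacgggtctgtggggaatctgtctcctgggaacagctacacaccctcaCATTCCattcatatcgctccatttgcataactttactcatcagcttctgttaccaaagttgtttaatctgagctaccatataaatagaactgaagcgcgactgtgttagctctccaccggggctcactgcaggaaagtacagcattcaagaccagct

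Each of the 3 stretches held 1 match, whose first base lay 236 bases before the start of Anxa1 and 131 and 107 bases before the upstream and downstream starts of Il33. A match on either strand was present in 14.7% of the 32851 start regions in that table, so such a match is common. The AP-1 motif TGANTCA, searched on both strands, matched none of the 3 stretches and 7.81% of all start regions. A match is a run of letters and not a measured binding site.

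The matrix held 1991 distinct barcodes. Barcodes with fewer than 500 genes found, or with a mitochondrial share of UMIs above 20%, were left out, which left 1892 cells. A unique molecular identifier (UMI) marks 1 captured RNA molecule, so a UMI count is a count of molecules. Their depth ran from 890 to 47183 gene UMIs around a median of 8512.5. Epithelial identity was checked with Epcam, Krt8, Krt18, Krt19 and Cldn7, each found in at least 90.7% of cells. Fibroblast, squamous, endocrine and tuft markers summed to at most 1.74 CPM for any of these lists, where CPM is UMIs per 1000000 gene UMIs, and endothelial markers to 2.63 CPM, of which Vwf held 50 UMIs. Col1a2, Col3a1, Dcn, Pdgfrb, Krt5, Krt6a, Cdh5, Kdr, Wt1, Tyrobp, Chga and Sst were all at 0 UMIs, which allows up to 0.149 CPM. Immune markers summed to 9.89 CPM, of which Cd68 held 196 UMIs, a level near that of Il33 below, and parietal and chief markers to 2.34 and 3.88 CPM. Msln, listed for mesothelium and also as a fetal gene, held 183 CPM, while Upk3b had 37 UMIs. The library held no cell type that should lack the 4 genes, so no background share from free RNA could be set beside theirs.

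A group of 64 cells stood apart from the library, and the main results are also given without it. The cells were clustered after the 4 genes, other fetal genes, annexins, cell cycle genes and sex-linked genes had been set aside, which gave 6 clusters of 535, 444, 376, 360, 113 and 64 cells. Cluster 6 was led by Cyba, Gm3776 and Reg3g. A UMI from a Y-linked gene was found in 34 of its cells (53.1%) and in 16 others (0.875%), and a Xist UMI in 28.1% of its cells against 78.4% of others. Its cells were deeper, with a median of 14365.5 against 8300.5 UMIs. All 4 listed pit cell genes were at least 2.0 times as high in it, at a sum of 5355 CPM against 155 CPM, led by Tff1 at 4041 against 103 CPM. The same held for all 7 proliferation genes, at a sum of 661 against 161 CPM. Over all genes, 10.7% were at least 2.0 times as high there. Of the chief cell genes, Pgc was at 47.9 against 1.10 CPM, while Cblif and Pga5 were at 0, and Bhlha15 had no UMI in these cells. Of 3 neck cell genes with at least 50 UMIs, Tff2 was 4.49 times and Glipr1 5.26 times as high, and Aqp5 was at 0.251 times, with 299 against 1189.7 CPM. How far these cells' type or cycling sets the values of the 4 genes was not tested. The labels name 1 genotype and do not say whether these cells came from the same mice, so their relation to the rest of the culture was not tested. Cluster 1 was led by Aox3, Scgb3a1 and Mmp7, cluster 2 by Cxcl5, Cxcl2 and Fam107a, cluster 3 by Ly6m, Ifit1 and Ndrg1, cluster 4 by 2610528A11Rik, 1700084E18Rik and Mt1, and cluster 5 by the mitotic genes Aspm, Knl1 and Dlgap5. The clusters are called by number.

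The 4 genes differed widely in level. Clu was among the most abundant transcripts of the library, Anxa1 and Anxa3 were present in most cells, and Il33 was rare. Because these counts tag the 3′ end of each molecule once, levels were not divided by gene length. Clu had 52535 UMIs, or 2611 CPM (95% Poisson interval 2589 to 2634), and ranked 81 of all genes. Anxa1 had 13260 UMIs, or 659 CPM (648 to 670), and Anxa3 had 6030 UMIs, or 299.7 CPM (292 to 307). Il33 had 235 UMIs, or 11.7 CPM (10.2 to 13.3). All intervals cover counting error alone.

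Clu was found in 99.4% of cells (exact Clopper-Pearson interval 98.96% to 99.7%). A cell held a median of 16 Clu UMIs, with quartiles of 8 and 32 and a highest value of 628. Anxa1 was found in 91.4% of cells (90.03% to 92.6%), with a median of 5 UMIs, quartiles of 2 and 10 and a highest value of 94. Clu and Anxa1 thus had nearly universal detection, with a long upper tail in both. Anxa3 was found in 81.5% of cells (79.7% to 83.2%), with a median of 2 UMIs, quartiles of 1 and 4 and a highest value of 34. Il33 was found in 149 cells, or 7.88% (6.70% to 9.18%). Of these, 119 cells had 1 UMI, 14 had 2 and 16 had 3 or more. Clu, Anxa1 and Anxa3 were found together in 76.3% of cells, all 4 genes in 138 cells, and none of the 4 in 4 cells. Without cluster 6 these numbers were 75.8%, 109 and 4.

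To compare cells at equal depth, each cell was thinned at random to 3000 gene UMIs, which kept 1835 cells and left out 57 shallower ones. At that depth Clu was found in 96.3% of cells, Anxa1 in 74.4%, Anxa3 in 53.7% and Il33 in 2.72%. Thinned Clu UMIs had a variance 9.87 times their mean, where pure counting gives 1, and 5.17 times without cluster 6. That ratio was 2.58 for Anxa1, 1.41 for Anxa3 and 1.12 for Il33. After the counting variance was taken out, the remaining coefficient of variation was 1.10 for Clu, 0.877 for Anxa1 and 0.679 for Anxa3. Without cluster 6 it was 0.795 for Clu, below the 0.880 of Anxa1, and 0.685 for Anxa3. Squared, the values over all cells ranked 143, 272 and 629 among the 3017 genes with a mean of at least 0.1 thinned UMIs per cell, so all 3 lay in the more variable part of the transcriptome. Il33, with 54 thinned UMIs, was below that minimum and was not ranked.

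**Figure D1:**
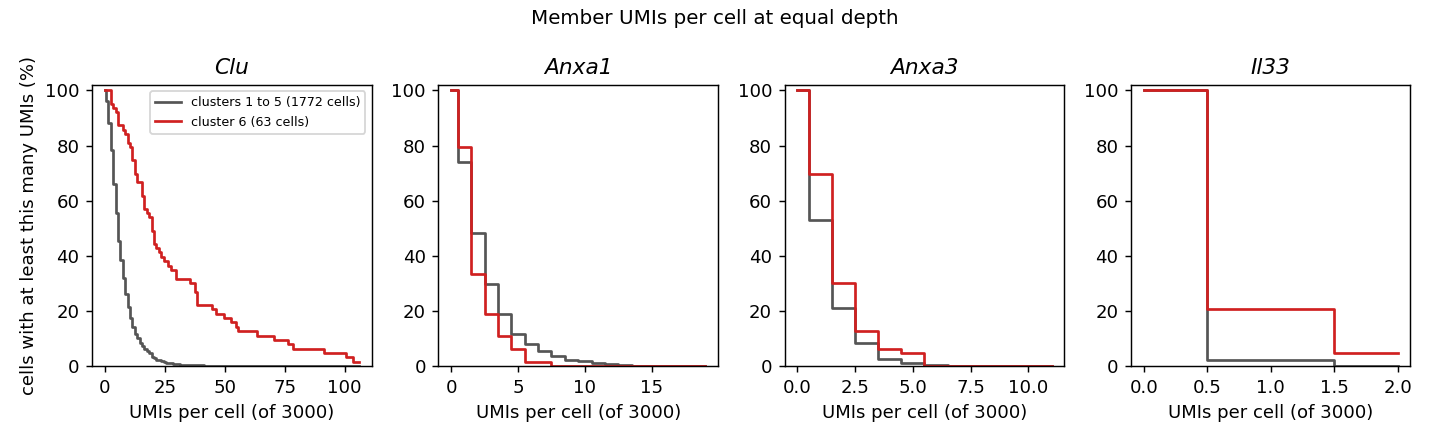
Share of cells (%, vertical axis) with at least the number of UMIs on the horizontal axis, for each gene after thinning to 3000 gene UMIs per cell, in clusters 1 to 5 (grey) and cluster 6 (red). The Clu curve of cluster 6, with a median of 19 UMIs, lies to the right of that of the other cells, with a median of 5. For Anxa1, 79.4% of cluster 6 cells and 74.2% of other cells have a UMI, but the mean is lower in cluster 6, at 1.52 against 2.08 UMIs.

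Whether the 4 genes vary together was measured as the Pearson correlation of ln(1 + thinned UMIs) across the 1835 cells, for the 6 pairs. These cells share 1 library, so the values are descriptions, and no p-value was computed. On this scale the genes did not move as a block. Clu and Anxa1 had the highest correlation, r = 0.202. Clu and Il33 had r = 0.142, and Clu and Anxa3 had r = 0.0964. For the annexins Anxa1 and Anxa3, r was 0.0574, and it was 0.102 at 5000 UMIs per cell and 0.148 on unthinned scaled counts. Clu and Anxa3 likewise had 0.121 and 0.172 there. Il33 had r = 0.0179 with Anxa1 and 0.0188 with Anxa3. The median over the 6 pairs was 0.0769. All 3 pairs that contain Clu ranked above the 3 that do not. Counting noise holds such values near 0 for sparse genes. Another measure took the counting variance out and used thinned UMIs without the logarithm, and it gave the pairs another order. The separate parts of these changes in that order were not tested. With the counting variance removed, r was 0.161 for Clu and Anxa1, 0.230 for Clu and Anxa3, 0.589 for Clu and Il33 and 0.101 for Anxa1 and Il33. With that and without cluster 6, the same pairs had 0.268, 0.152, 0.370 and 0.239. Values for Il33 rest on 54 thinned UMIs, 38 of them outside cluster 6.

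A value of 0.2 is modest in itself and was reached by few of the genes tested. Most of these were sparser than Clu and Anxa1, which ranked 81 and 194 by level, and no background matched for level was made. The bound of 0.2 was chosen after values had been seen, and Clu and Anxa1 lay at it. Their r was 0.189 under another random thinning and 0.186 in the shallowest of 3 depth classes. It was 0.199 in cells with at least 1000 genes and at most 10% mitochondrial UMIs. Of 3016 genes, 0.332% reached r of 0.2 with Clu, and Anxa1, which ranked 10, was one of them, while Anxa3 ranked 84. With Anxa1, 0.531% of genes reached it, and Clu ranked 15 and Anxa3 345. With Anxa3, 0.0663% of genes reached it, and Clu ranked 69 and Anxa1 295. With Il33, 0% of 3017 genes did, the highest value being 0.189, and there Clu ranked 2 while Anxa1 and Anxa3 ranked 693 and 652. No member reached -0.2 with another, which 0.265% of genes did with Clu, 0.232% with Anxa1 and 0.0332% with Anxa3. Without cluster 6, 0.366% of genes reached 0.2 with Clu, 0.566% with Anxa1 and 0.0999% with Anxa3. Clu and Anxa1, at 0.222, were again the one pair of members to do so, which is no test under a bound chosen with their value known. The median r over all genes was between -0.00122 and 0.0123 for the 4 genes.

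**Figure D2:**
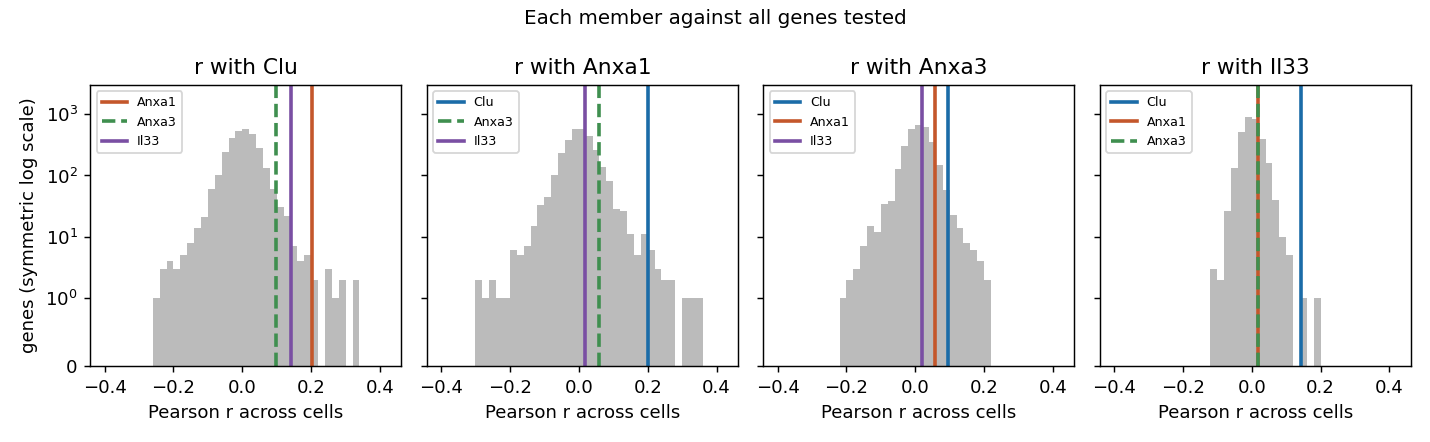
Number of genes (vertical axis, symmetric log scale) by Pearson r with each of the 4 genes across thinned cells (horizontal axis), with the other 3 marked as vertical lines. Anxa1 stands in the upper tail for Clu at 0.202, whereas for Anxa1 the lines of Anxa3 and Il33 lie at 0.0574 and 0.0179, below the 95th percentile of 0.0852.

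Of the 6 pairs, Clu and Il33 changed most when cluster 6 was left out, and the other pairs stayed within 0.05 of their values in all cells. Without cluster 6, in 1772 cells, Clu and Anxa1 had r = 0.222 and Clu and Anxa3 had r = 0.0771. Clu and Il33 had r = 0.0647 there, against 0.142 in all cells and 0.0925 in all cells under a second random thinning. Clu then ranked 20 among the genes most like Il33. Anxa3 and Il33 had r = -0.00647. Clu and Anxa1 also kept values of 0.191 and 0.217 in the cells of each multiplexing tag, 0.224 in G1 cells, and 0.186, 0.216 and 0.214 from the shallowest to the deepest of 3 equal classes of depth.

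Inside single clusters the Clu and Anxa1 relation was smaller in most. From cluster 1 to cluster 5 it was 0.0826, 0.130, 0.199, 0.129 and 0.0453, and it was 0.231 in the 63 thinned cells of cluster 6. All 6 values were above 0, yet 4 of them were at most 0.130. Anxa1 and Anxa3 changed sign between clusters, from -0.111 in cluster 2 to 0.154 in cluster 3. The value for Clu and Anxa1 in all cells, 0.202, was above that within 5 of the 6 clusters.

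**Figure D3:**
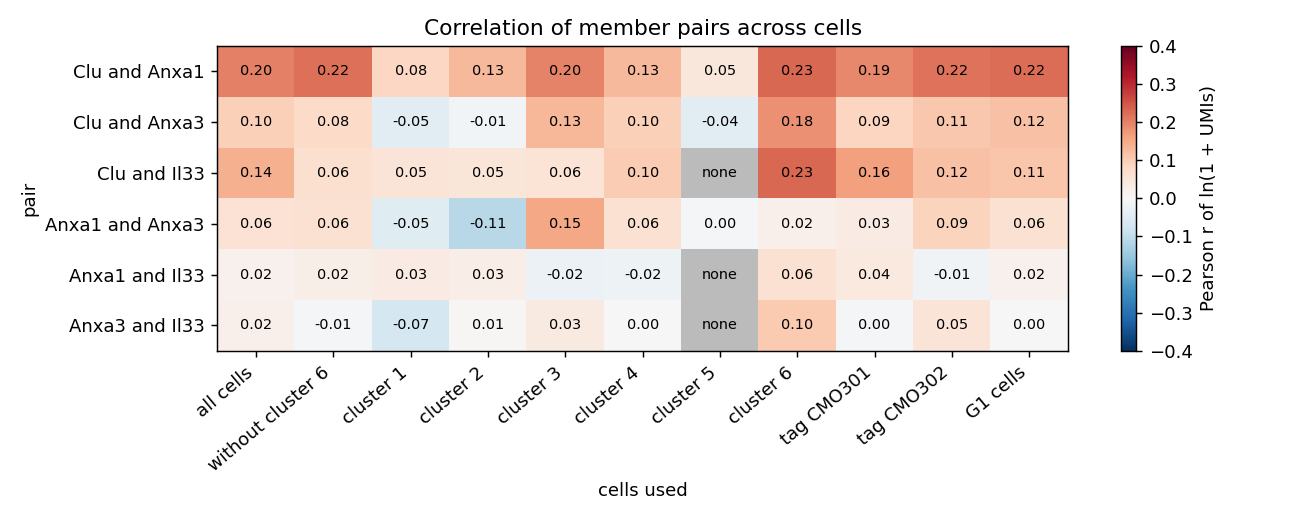
Pearson r of ln(1 + thinned UMIs) for each pair of genes (rows) in all cells and in subsets of cells (columns); colour gives r, and "none" marks cluster 5, where no thinned Il33 UMI was found. The top row, Clu and Anxa1, is above 0 in every column, and the Clu and Il33 row falls from 0.14 in all cells to 0.06 without cluster 6.

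The relation of Clu and Anxa1 was graded over most of the Clu range. Cells with 0 or 1 thinned Clu UMIs had 1.32 Anxa1 UMIs per cell (1.17 to 1.49, n = 206 cells). With 2 to 3 Clu UMIs the Anxa1 mean was 1.56 (1.44 to 1.69), with 4 to 6 it was 1.99 (1.86 to 2.11), and with 7 to 12 it was 2.57 (2.43 to 2.71). Above that it levelled off, at 2.69 (2.46 to 2.92) with 13 to 24 Clu UMIs and 2.33 (1.94 to 2.78) with 25 or more. Cluster 6 made up 44.4% of the 54 cells in the highest of these classes, and without it the Anxa1 mean there was 2.83 (2.26 to 3.50, n = 30 cells).

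Anxa3 differed less than Anxa1 over the first 5 Clu classes. Its mean was 0.762 UMIs per cell (0.648 to 0.891) in the lowest Clu class, 0.955 (0.870 to 1.05) with 7 to 12 Clu UMIs and 0.939 (0.809 to 1.08) with 13 to 24. In the highest class it was 1.52 (1.21 to 1.88), and 1.37 (0.981 to 1.85) without cluster 6. Il33 had 2 thinned UMIs in the lowest Clu class and 13 in the 54 cells of the highest, of which 3 remained without cluster 6. These Il33 counts were too small to rank the classes between.

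**Figure D4:**
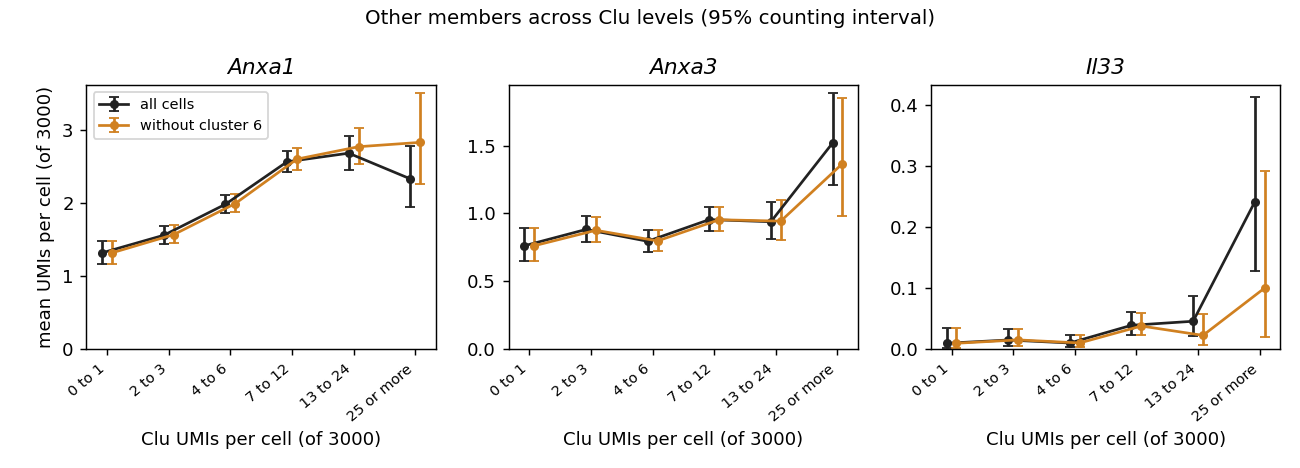
Mean UMIs per cell of Anxa1, Anxa3 and Il33 (vertical axes, thinned to 3000 gene UMIs, bars are 95% Poisson intervals) in cells grouped by Clu UMIs (horizontal axis), with and without cluster 6. Anxa1 climbs from 1.32 to 2.57 over the first 4 classes, and Anxa3 stays between 0.762 and 0.955 there.

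After thinning, the cells with the most UMIs of each gene were mostly different cells. At cuts of a few UMIs, counting noise also moves cells in and out of such sets, and its part in the overlaps was not tested. A cut at the 90th percentile marked 192 cells for Clu (at least 15 thinned UMIs) and 208 for Anxa1 (at least 5), and 36 cells were in both sets. That is 18.8% of the Clu set and 17.3% of the Anxa1 set, where the Anxa1 set is 11.3% of all cells. The Anxa3 set (at least 2 UMIs) was 21.6% of cells, and 29.2% of the Clu set and 21.6% of the Anxa1 set fell in it. High Clu cells were therefore somewhat richer in Anxa1 and Anxa3 cells, and high Anxa1 cells held Anxa3 cells at the share of the whole library. In all, 8 cells were in all 3 sets, and 5 when cluster 6 was left out and the cuts were set again.

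Clu, the secreted chaperone, had its highest level in cluster 6, at 9033 CPM (8852 to 9218) against 2260 CPM (2239 to 2282) elsewhere, 4.0 times as high (3.91 to 4.09). Of the 10 cells with the most thinned Clu UMIs, from 54 to 106, all were in cluster 6. Clusters 1 to 5 followed at 2819, 2632, 1870, 1351 and 2100 CPM, and no pair of these intervals overlapped. Within cluster 6 Clu remained uneven, from 2 to 106 thinned UMIs per cell.

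Anxa1 followed another order, with clusters 1 and 2 highest. It was at 930.01 CPM (905 to 955) in cluster 2 and 908 CPM (880 to 937) in cluster 1, whose intervals overlapped. Cluster 5 followed at 619 CPM (579 to 661) and cluster 6 at 449 CPM (409 to 491). Clusters 3 and 4 had 371 CPM (354 to 388) and 308 CPM (287 to 330). In cluster 6 it was 0.669 times (0.609 to 0.734) the level of other cells, although at equal depth it was found in 79.4% of cluster 6 cells against 74.2% of others. The cluster with the most Clu RNA therefore had fewer Anxa1 UMIs per gene UMI than other cells together, while in the rest of the library cells with more Clu had more Anxa1.

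Anxa3 shared the high level of Clu in cluster 6, but among the other clusters it was highest in cluster 2, where Clu was highest in cluster 1. It was at 454 CPM (414 to 496) in cluster 6, 1.56 times (1.41 to 1.71) the other cells. Cluster 2 followed at 374 CPM (358 to 390), cluster 5 at 333 CPM (303 to 364) and cluster 1 at 297 CPM (281 to 313). Clusters 3 and 4 had 237 CPM (224 to 251) and 182 CPM (166 to 199). Intervals of clusters 2 and 5, and of clusters 5 and 1, overlapped.

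Il33 was concentrated in cluster 6, which held 91 of its 235 UMIs and 5.18% of all gene UMIs. There it was at 87.3 CPM (70.3 to 107) against 7.55 CPM (6.37 to 8.89) elsewhere, 11.6 times as high (8.79 to 15.1). It was found in 30 of the 64 cells (46.9%) and in 6.51% of other cells. At equal depth the shares were 20.6% and 2.09%. In clusters 1 to 5 it was between 4.24 CPM (1.56 to 9.23, cluster 5) and 10.1 CPM (7.67 to 13.1, cluster 2), and the intervals of clusters 2 and 5 overlapped. The single cell with the most Il33, 12 UMIs, was in cluster 3 and was not called a doublet.

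Ratios to all other cells were read against those of the 10132 genes with at least 50 UMIs. In cluster 6, 10.7% of them were at least 2.0 times as high as elsewhere, among them Clu and Il33, and 9.64% were at most 0.5 times, among them none of the 4. No member was at least 2.0 times as high in clusters 1 to 5, where 0.247%, 2.07%, 1.11%, 0.592% and 5.36% of genes were. In cluster 2 none was at most 0.5 times either, as 2.18% of genes were. Cluster 4 had low levels of many genes, with 13.1% at most 0.5 times other cells. Clu at 0.483 times, Anxa1 at 0.433 and Il33 at 0.392 were so called there, and Anxa3 was at 0.573. In cluster 3 Anxa1, at 0.492 times, passed that limit, as did 4.13% of genes. Il33 was below it in clusters 1 (0.455 times, 6.57% of genes) and 5 (0.346 times, 3.38% of genes), but the other cells include cluster 6. Set against clusters 1 to 5 alone, the Il33 ratios of clusters 1, 4 and 5 were 0.753 (0.472 to 1.16), 0.625 (0.324 to 1.11) and 0.542 (0.196 to 1.21), and each interval held 1. Cluster 2 was then at 1.57 times (1.10 to 2.21). In the same setting, Clu in cluster 4 was at 0.562 times (0.543 to 0.582), Anxa1 at 0.423 (0.393 to 0.454) and Anxa3 at 0.589 (0.535 to 0.647). Cluster 4 also had the lowest median depth, 6189.5 UMIs, and the highest share of ribosomal protein UMIs, 38.7%, and their part in its low values was not tested.

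**Figure D5:**
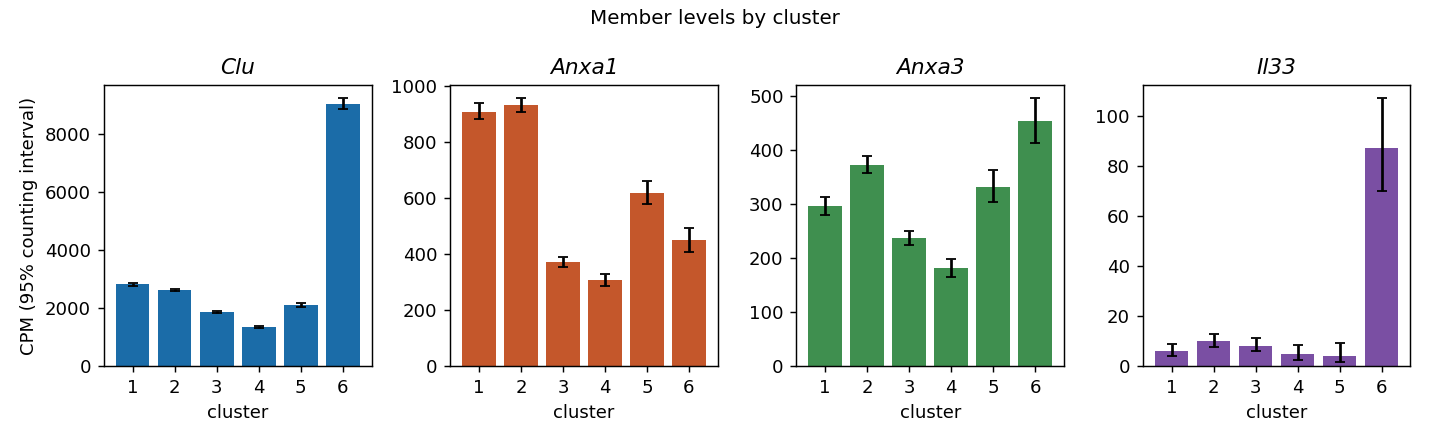
Level of each gene in CPM (vertical axes, each with its own scale, bars are 95% Poisson intervals) in clusters 1 to 6 (horizontal axis). Clu and Il33 peak in cluster 6 at 9033 and 87.3 CPM, Anxa1 peaks in clusters 1 and 2 at 908 and 930.01 CPM, and all but Il33 are lowest in cluster 4.

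Cells with an Il33 UMI were compared with cells without one, knowing that they were deeper, with a median of 14267 against 8234 UMIs. In all cells, Clu was 1.77 times as high (1.73 to 1.81) where Il33 was found. Outside cluster 6 that ratio was 1.21 (1.18 to 1.25), with 2693 CPM in 119 cells against 2216 CPM in 1709. Inside cluster 6 it was 0.907 (0.870 to 0.945), from 30 cells with and 34 without, whose median depths were 17503.5 and 11667.5 UMIs. At equal depth, Clu and Il33 had r = 0.230 within cluster 6 (63 cells), so the 2 measures differed in sign there and give no direction. Anxa1 was 1.27 times as high (1.20 to 1.34) in Il33 cells outside cluster 6, 1.03 times (0.856 to 1.25) inside it and 1.13 times (1.07 to 1.19) in all cells. For Anxa3 these ratios were 1.10 (1.004 to 1.20), 1.42 (1.17 to 1.73) and 1.27 (1.18 to 1.36).

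By multiplexing tag, the oligonucleotide label of a cell suspension, the 4 genes were close. The labels do not say what the tags mark in this library. Cells with CMO301 as the highest tag (1062) and with CMO302 (830) had 2588 and 2641 CPM of Clu, 666 and 649.9 CPM of Anxa1, 300.3 and 299 CPM of Anxa3, and 132 and 103 UMIs of Il33. Intervals of the ratio held 1 except for Clu, at 0.980 (0.963 to 0.997). The high level in cluster 6 was present under both tags. Clu there was 3.71 times the other cells with CMO301 (38 cells) and 4.48 times with CMO302 (26 cells), and Il33 was 8.95 times (6.13 to 12.9) and 16.2 times (10.7 to 24.4).

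By cell cycle phase, pooled Clu CPM was 1.14 times as high (1.11 to 1.16) in the 448 cells called S or G2/M as in the 1444 called G1. At equal depth the means were 7.32 and 7.39 Clu UMIs per cell, close to each other. Without cluster 6, of whose cells 60.9% were called S or G2/M, the pooled ratio turned, to 0.885 times (0.864 to 0.907), with 5.79 against 6.83 UMIs per cell at equal depth. Il33 went from 1.89 times (1.43 to 2.48) to 0.695 times (0.420 to 1.10) in the same way. Anxa1 was lower in cells called S or G2/M in both settings, at 0.834 (0.799 to 0.871) and 0.860 times (0.821 to 0.899), and its equal-depth means over all cells were 1.75 and 2.15 UMIs. For Anxa3 the pooled ratios were 1.12 (1.06 to 1.19) and 1.09 (1.03 to 1.17), but the equal-depth means over all cells were 0.889 and 0.890 UMIs. Calls by a UMI of Mki67 or Top2a gave another picture at equal depth, with 7.68 Clu UMIs per cell against 7.25 without one and 2.08 against 2.05 Anxa1 UMIs. No direction with cycling is therefore read for Clu or Anxa1.

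The genes most like each member differed. For Clu they were Ltf (r = 0.338), which encodes the antimicrobial lactoferrin, Tmsb4x (0.333), encoding an actin-binding thymosin, Wfdc2 (0.289), Gsta4 (0.281), encoding a glutathione transferase, and Sftpd (0.267), encoding surfactant protein D. Without cluster 6, 4 of these 5 stayed among the first 5, and Ly6d took the place of Gsta4, with r of 0.276 against 0.139 in all cells. At the other end stood 2410006H16Rik (-0.257) and the glycolytic genes Pgk1 (-0.235) and Aldoa (-0.225).

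Anxa1 was closest to Tmsb4x (0.343), the membrane protein genes Tmem176a (0.327) and Tmem176b (0.314), Bcam (0.271), encoding a laminin receptor, and Aqp5 (0.270), encoding a water channel. The same 5 genes led without cluster 6. Eif1 (-0.291), Pgk1 (-0.288) and 1110038B12Rik (-0.276) were lowest. Tmsb4x was the one gene among the first 5 of both Clu and Anxa1.

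Anxa3 was closest to S100a11 (0.213), whose product binds annexins, and to Ly6a (0.206), which encodes the Sca-1 surface protein of fetal-like epithelium. Actb (0.186), Ier3 (0.185) and Prxl2a (0.181) followed, and without cluster 6 Rhox5 (0.206) took the place of Prxl2a. Its lowest values were with Fau (-0.204), 2410006H16Rik (-0.191) and Rps27 (-0.189), and it had the most negative relation of the 4 to the ribosomal share of a cell's UMIs (r = -0.191, against -0.141 for Clu and -0.129 for Anxa1). For Il33 the leading genes were Gsta1 (0.189), Clu (0.142), Gsta4 (0.115), Gsto1 (0.106) and Tspan8 (0.104), and none of them remained among the first 5 without cluster 6. Gsta1 then had r = -0.00121 with Il33. Rpl9 (-0.111), Bri3 (-0.103) and 2410006H16Rik (-0.102) had the lowest values with Il33 in all cells. Ranked by the lowest of their 4 values, the genes most like all members were Gsta4 (0.115), Ccnd2 (0.0978), Tspan8 (0.0891), Gsto1 (0.0843) and Ccnd1 (0.0707). Without cluster 6 their lowest values were 0.0430, 0.0544, 0.0610, 0.0219 and 0.0313.

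Other genes of the fetal and regenerative programme were present, and their correlations with the 4 genes were mostly small and above 0. All 17 on the list were detected. They ranged from Ly6a at 3136 CPM, Ly6d at 3103 CPM and S100a6 at 2978 CPM to Gja1 at 4.67 CPM. Of the 10 abundant enough to be ranked, 1 reached r of 0.2 with any member, Ly6a with Anxa3, which 0.0663% of all genes did, and none reached -0.2. Without cluster 6, Ly6a (0.258) and Ly6d (0.276) reached it with Clu, as 0.366% of genes did. The median r over the 10 was 0.0768 with Clu, 0.0444 with Anxa1 and 0.0618 with Anxa3, beside medians over all genes of 0.00356, 0.00279 and 0.0123. The genes behind the latter medians were not matched to the list for level. Without cluster 6 the list's medians were 0.0860, 0.0442 and 0.0618. Ly6a had r = 0.159 with Clu in all cells, and it was at 1280 CPM in cluster 6 against 3238 CPM elsewhere. Krt7, a simple epithelial keratin, had r = 0.174 with Clu and 0.171 with Anxa3 but 0.0541 with Anxa1. In cluster 6, 4 of the 17 were at least 2.0 times as high (Spp1, Sprr1a, Areg and Ereg) and 2 at most 0.5 times (Ly6a and Ly6d), beside 10.7% and 9.64% of all genes, with a median ratio of 1.28 against 1.05 over all genes. The growth factor gene Areg was 6.88 times as high there (5.74 to 8.21).

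Of genes tied to YAP activity, none of 4 reached r of 0.2 with a member, as is usual where at most 0.531% of genes do. Among these 4, Ccn1, Ccn2, Amotl2 and Tead1, the highest value was 0.0847, for Ccn1 with Anxa1. Of 9 with at least 50 UMIs, none was at least 2.0 times as high in cluster 6 and 1 at most 0.5 times, Ccn2 at 0.407 times (0.295 to 0.548), beside 10.7% and 9.64% of all genes. Of the stem and Wnt genes, Sox9 was at 81.7 CPM and had r = 0.0760 with Clu. Lgr5 had 91 UMIs, Axin2 378, Ascl2 3 and Olfm4 none.

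Among the other annexins, 9 of 10 were detected and Anxa2 was the highest at 329 CPM, followed by Anxa4 at 207 and Anxa5 at 161 CPM. None of the 6 that could be ranked reached r of 0.2 with a member, as at most 0.531% of genes do, and the highest value was 0.115, for Anxa5 with Anxa3. In cluster 6, Anxa10 was 25.8 times as high (17.2 to 38.8) and Anxa8 9.59 times (6.47 to 14.0), while Anxa6 was at 0.355 times (0.193 to 0.599). Of 8 annexins with at least 50 UMIs, these were the 3 past either limit, 2 high and 1 low, beside 10.7% and 9.64% of all genes.

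Of 12 listed partners of the products, 6 were detected. S100a11 (1741 CPM) and S100a10 (1427 CPM), which encode annexin-binding proteins, had r of 0.196 and 0.133 with Clu, 0.163 and 0.194 with Anxa1, and 0.213 and 0.156 with Anxa3. Pla2g4a, a phospholipase gene, had 10.5 CPM. The receptor genes Fpr1, Fpr2 and Fpr3, for annexin A1, Il1rl1, for interleukin-33, and Lrp2 and Trem2, for clusterin, had no UMI, which allows up to 0.149 CPM. Vldlr (38.6 CPM), Lrp8 (4.13 CPM) and Il1rap (2.44 CPM), the shared receptor chain of the interleukin-1 family, were detected. Of the other epithelial alarmin genes, Hmgb1 had 367 CPM and Il18 503 UMIs, and Il1a, Tslp and Il25 had 5, 19 and 1 UMIs. Il1b had none. Hmgb1 was 2.08 times as high in cluster 6 (1.92 to 2.24), and Il18 was 1.28 times (0.874 to 1.83).

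Transcripts that respond to tissue dissociation were measured beside these values. The summed level of 7 such genes, among them Fos, Jun, Egr1 and Atf3, was 5249 CPM, and it was 2275 CPM in cluster 6 against 5412 elsewhere. Across cells, the 6 of these genes that could be ranked had a median r of 0.0370 with Anxa1 and -0.0252 with Clu. Atf3 was highest with Anxa1, at 0.177, and Jun lowest, at -0.0234. The part of dissociation in the level of Anxa1 was not tested. Depth had r = 0.113 with thinned Clu, 0.0784 without cluster 6, and between -0.0307 and 0.0521 with the other 3 genes.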

How the data were processed

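Single cells of 1 library of wild type mouse gastric organoids were measured with a droplet 3′ kit, per the labels' protocols. The deposited values are raw UMI counts of genes in each barcode. Per the file headers, they came from Cell Ranger 6.1.2. The series' design text gives GRCm38/mm10 as the build. The annotation is not given in the sources used here. Counts of 12 multiplexing tags were left out of totals. With 1 library no test was made. CPM, ratios and their exact 95% intervals (Poisson, Clopper-Pearson, conditional binomial) cover counting error alone. A count of 0 is given with the limit that 3 counts set.

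Clusters were made with scanpy 1.11.5 and leidenalg 0.10.2 (2000 variable genes, 30 components, 15 neighbours, resolution 0.6). A gene led a cluster by its ratio to other cells, given at least 50 UMIs and a UMI in 10% of cells. Scrublet called 12 cells (0.634%) doublets, and they were kept. Named genes were the members, the list genes, the 5 genes with the highest and 3 with the lowest r per member, 5 genes by their lowest r, and 3 leading genes per cluster. The members, lists and the separation of the cluster rich in Y-linked UMIs were chosen with earlier results of these data known. The bounds for r (0.2), the Clu classes, the 90th percentile sets and the split by an Il33 UMI were chosen after values had been seen. Ratio intervals, thinning and Pearson r were tested on simulated cells that differed only by counting error and by a raised or lowered set of genes. The clustering, the doublet and phase calls and the removal of counting variance were not tested in this way.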

Additional observations from a re-analysis of the deposited data

How the results depend on the processing

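Across 29 alternatives, 214 values of 27 results were recomputed. A value was taken as unmoved within its main counting interval, within 0.05 for r, or within 1.5 times for counts of genes. Of the values that answer a comparison, 59 were unmoved, 24 moved and 2 turned direction. Of the r values of single pairs, 95 were unmoved and 34 moved. The causes of the shifts were not tested, except that leaving out cluster 6 removes its own UMIs.

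Without cluster 6, levels were 2260 CPM for Clu, 671 for Anxa1, 291 for Anxa3 and 7.55 for Il33. Means over cells gave 2476 CPM for Clu, 683 for Anxa1 and 9.12 for Il33. Clu was at 2588 CPM in cells with CMO301 and 2641 with CMO302. The median r of the 6 pairs, 0.0769, was 0.160 on unthinned scaled counts. It was 0.134 with the counting variance removed and no logarithm taken, and 0.196 with that and without cluster 6. It was -0.00551 within cluster 1, 0.0157 within cluster 2 and 0.143 within cluster 6. With the counting variance removed and no logarithm taken, Clu and Il33 had r = 0.589, and 0.370 without cluster 6, from 54 and 38 thinned Il33 UMIs. A second random thinning gave 0.0925 for that pair on the main scale and 0.189 for Clu and Anxa1. No value for Il33 within cluster 5 could be had, where it had no thinned UMI.

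At resolution 0.3 and with 1000 variable genes, the cluster rich in Y-linked UMIs held 153 cells each time, 64 and 62 of them from cluster 6. Its ratios to other cells were then 2.36 and 2.31 for Clu, 0.801 and 0.767 for Anxa1, 1.36 and 1.33 for Anxa3, and 5.50 and 5.37 for Il33. The ratio of cycling to G1 cells turned without cluster 6 for Clu (0.885) and Il33 (0.695). For Anxa1 it was 0.920 when cycling cells were called by a UMI of Mki67 or Top2a, with equal-depth means of 2.08 against 2.05 UMIs.

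Thinning seed, depth classes, omission of the top 1% of Clu cells, the combined setting, spread, co-detection and list medians without cluster 6, and equal-depth means by phase were added after the data had been seen. Il33 had 54 thinned UMIs, which limits its values. No paired analysis was possible because all cells came from a single library.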
